A study of Saccharomyces cerevisiae with 6 samples.

Results

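The cytosolic large ribosomal subunit of budding yeast is described here through the genes of its proteins. A gene was taken as a member where its platform symbol is RPL with a number and an optional A or B, or is one of the 5 stalk genes RPP0, RPP1A, RPP1B, RPP2A and RPP2B. This gave 75 genes of 5449 measured. Genes such as RPL1A, RPL7B, RPL35B, RPL41B and RPL42A, whose symbols also fit the rule, were not analysed here. RPL1B, RPL7A, RPL35A, RPL41A and RPL42B are read by probe sets shared between transcripts, to which their paralogues may contribute. Expression was measured on 6 Affymetrix arrays in a strain that lacks SSE1, an Hsp110 chaperone and exchange factor for cytosolic Hsp70. Both groups carry the deletion. One group of 3 arrays holds an empty plasmid, and the other group of 3 a multi-copy plasmid that expresses yEVenus, a yellow fluorescent protein for use in yeast. All were in exponential phase in medium lacking leucine, from independent colonies. Wild-type cells are not among the groups, yEVenus itself is not measured, and the labels give no promoter, plasmid marker or batch.

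The large subunit holds the peptidyl transferase centre, where peptide bonds form, the tunnel through which the new chain leaves, and a flexible stalk that recruits translation factors. Most of its proteins in yeast are encoded by a pair of genes, A and B, left from an ancient genome duplication, and the encoded proteins are identical or nearly so. The genes are transcribed together at a high rate under Rap1, Fhl1 and Ifh1, and Sfp1 and the TOR pathway tie their output to growth. Many of them carry an intron, which is uncommon among yeast genes.

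Levels are RMA values, that is log2 expression per probe set after the arrays were brought to a common distribution, so each difference is relative to the bulk of transcripts. Differences are yEVenus minus empty plasmid. A gene "rose" or "fell" where its p, adjusted over all 5449 genes in limma, was under 0.05. For SSE1 the mean log2 level was 3.14 in the empty plasmid group and 3.17 in the yEVenus group, at the low end of the arrays in both. Arrays correlated at 0.996 to 0.998 within groups and at 0.966 to 0.978 between groups.

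With yEVenus, large subunit genes moved in both directions and by small amounts. Of the 75, 27 rose, 10 fell and 38 did not pass. Over all genes, 29.3% rose, 41.0% fell and 70.4% passed in either direction. The median log2 difference was 0.09 for the 75 genes and -0.07 for all genes, and the median size, sign ignored, was 0.12 against 0.30. The members are bright: their median level was 13.30, against 9.13 for all genes. The highest level on an array was 14.17 to 14.24. Whether brightness near that limit narrows the differences was not tested. The differences ran from -0.36 for RPL3 to 0.74 for RPL41A, which is 1.29-fold lower to 1.67-fold higher. Tested against a change of 1.2-fold, 1 member rose, RPL22B (limma treat, adjusted p = 0.034), and 0 fell, where 15.5% of all genes rose and 16.6% fell. At an unadjusted p under 0.05 that test had 2 members higher and 1 lower. The 2 groups of arrays did not overlap for 60 of the 75 genes, near the 74.9% of all genes.

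The balance of rises and falls depended on scaling. With each array centred on its median, 45 members rose and 8 fell, beside 33.9% and 34.1% of all genes. With each chromosome centred, 42 rose and 6 fell, beside 34.3% and 34.0%. After length correction, that is removal of the trend of each array with gene length, 15 rose and 30 fell. The shares of all genes were 31.0% and 34.0%, and the median of the members was -0.02. Gene length is the span from start to stop codon, which for 49 members includes an intron and overstates the mature transcript.

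**Figure D1:**
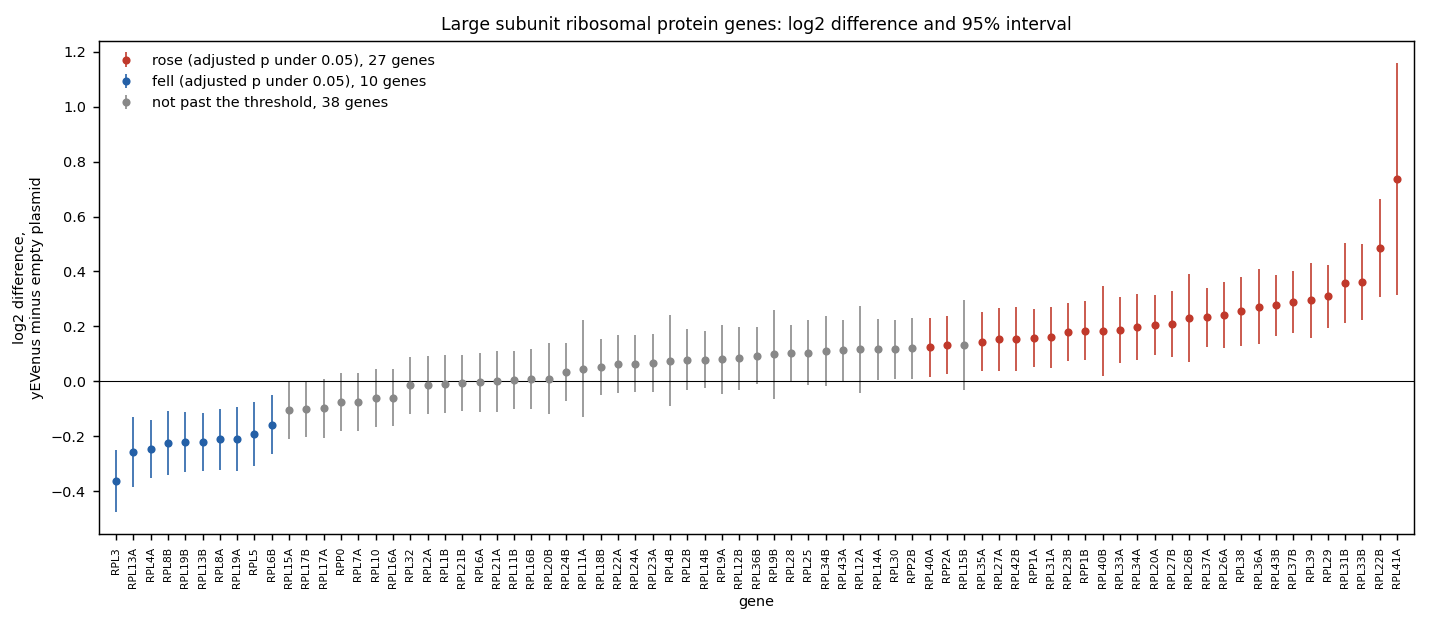
Log2 difference (yEVenus minus empty plasmid, vertical axis) of each of the 75 genes, ordered by size, with the 95% interval from limma; red genes rose, blue genes fell and grey genes did not pass. The differences form a continuous series from -0.36 to 0.74 with 27 red and 10 blue genes.

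Other features of the arrays moved along with these values. The 3' minus 5' gap of control probe sets for 7 yeast genes averaged 1.83 on the log2 scale in the empty plasmid group (arrays 1.80 to 1.86) and 2.48 in the yEVenus group (2.43 to 2.56). Their part in the members' differences was not tested. Genes of chromosome II had a median difference of -0.32 over 387 genes, against -0.06 over 4972 genes of chromosomes other than I and II. Chromosome II holds 6 members (RPL4A, RPL19A, RPL19B, RPL21A, RPL23A and RPL32), of which 3 fell, beside 60.5% of its 387 genes. Chromosome I holds 0 members. Gene length is described further on.

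Transcripts for proteins of the catalytic core are given first. Of the 6 genes for Rpl2, Rpl3, Rpl4 and Rpl10, 0 rose and 2 fell, beside 29.3% and 41.0% of all genes, and 0 were higher at an unadjusted p under 0.05 in limma. RPL3 encodes a protein whose arm extends to the peptidyl transferase centre. It read 13.57, 13.64 and 13.65 with the empty plasmid and 13.26, 13.24 and 13.27 with yEVenus. Every yEVenus array was below every empty plasmid array, and the difference of -0.36 ± 0.048 (SE, adjusted p = 3.16e-04) had the smallest adjusted p of the members. RPL4A, whose protein lines the narrow part of the exit tunnel, read 13.67, 13.67 and 13.67 against 13.44, 13.40 and 13.43, a difference of -0.25 ± 0.045 (SE, adjusted p = 0.0016). Its probe set carries the suffix for probes shared between transcripts, so RPL4B may contribute to it. It also lies on chromosome II, and with each chromosome centred its difference was 0.05 (adjusted p = 0.34). RPL10, the protein added last to the subunit next to the transferase centre, was at -0.06 ± 0.045 with groups that did not overlap, and did not pass (adjusted p = 0.26). RPL2A and RPL2B were at -0.01 and 0.08.

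Rpl5 and Rpl11 enter the subunit together with 5S rRNA. RPL5 read 13.50, 13.60 and 13.54 with the empty plasmid and 13.38, 13.32 and 13.37 with yEVenus. It fell by 0.19 (SE 0.050, adjusted p = 0.0098), and was at -0.12 with array medians centred (adjusted p = 0.0631). The groups of both Rpl11 genes overlapped: RPL11A was at 0.05 and RPL11B at 0.004. Whether RPL5 differed from the RPL11 genes in response was not tested.

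Of the 4 transcripts for the acidic stalk proteins, 3 rose slightly, beside 29.3% of all genes that rose. P1 and P2 bind as dimers to P0, and the stalk activates the GTPases of translation. RPP1A read 13.26, 13.24 and 13.24 with the empty plasmid and 13.38, 13.41 and 13.43 with yEVenus, a rise of 0.16 (SE 0.046, adjusted p = 0.0148). RPP1B rose by 0.18 from 13.34, 13.35 and 13.31 to 13.51, 13.50 and 13.55, and RPP2A by 0.13 from 13.50, 13.48 and 13.45 to 13.59, 13.61 and 13.63. These 3 genes had no overlap between groups, but the RPP2A call was lost without any of 5 of the 6 arrays (adjusted p up to 0.0985 in limma) and the RPP1A call without 1 of them (0.0561). RPP2B read 13.62, 13.56 and 13.55 against 13.67, 13.72 and 13.69, a difference of 0.12 that just missed the threshold (adjusted p = 0.0527). The anchor gene RPP0 read 13.60, 13.60 and 13.57 against 13.54, 13.49 and 13.51, a difference of -0.08 (adjusted p = 0.173), again without overlap. RPL12A and RPL12B, for the protein at the stalk base, were at 0.12 and 0.08 and did not pass. RPP1A, RPP2A and RPP2B are among the shortest members, at 321, 321 and 333 nt, while RPP0 has 939 nt. With the length trend removed these 3 had differences of -0.37, -0.39 and -0.40 and RPP0 one of -0.06. RPP1B, whose span includes an intron, was at -0.02.

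Genes for proteins around the tunnel exit, where chaperones and targeting factors meet the new chain, moved in both directions. There 7 of 13 genes rose and 2 fell. The shares of all genes were 29.3% and 41.0%. The median was 0.14, and the groups did not overlap for any of the 13, beside 74.9% of all genes. With the length trend removed 5 rose and 4 fell, beside 31.0% and 34.0% of all genes, and the median was 0.07. RPL22B is treated with its paralogue further on. RPL31B read 12.92, 12.79 and 12.73 with the empty plasmid and 13.15, 13.23 and 13.14 with yEVenus, a rise of 0.36 (SE 0.063, adjusted p = 0.0013). RPL39, for a very small protein inside the tunnel, rose by 0.30 from 12.83, 12.74 and 12.73 to 13.03, 13.15 and 13.01, and was at 0.005 with the length trend removed (adjusted p = 0.931). All yEVenus arrays of both genes lay above all empty plasmid arrays. RPL26A and RPL26B rose by 0.24 and 0.23, RPL35A by 0.14 and RPL31A by 0.16. RPL31B after length correction was at 0.22 and RPL31A at 0.08, the latter no longer past the threshold (adjusted p = 0.167). RPL25, whose protein is the docking site of the signal recognition particle, was at 0.10 and did not pass (adjusted p = 0.1). RPL17A and RPL17B were at -0.10 each. RPL19A read 12.99, 12.93 and 12.89 against 12.75, 12.71 and 12.72, and RPL19B 13.30, 13.24 and 13.26 against 13.07, 13.05 and 13.02. Both fell without overlap, by 0.21 and 0.22. They lie on chromosome II, and they were at 0.09 and 0.08 with each chromosome centred (adjusted p = 0.137 and 0.17).

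RPL1B, for the mobile L1 stalk on the other side of the subunit, was at -0.01 with overlapping groups. Among the remaining 45 members 17 rose and 5 fell, beside 29.3% and 41.0% of all genes. RPL41A encodes the shortest ribosomal protein, on a span of 78 nt from start to stop codon. Its probe set is of the shared kind, so RPL41B may contribute to it. RPL41A read 8.56, 8.62 and 8.18 with the empty plasmid and 8.89, 9.58 and 9.11 with yEVenus, the lowest member on every array. The groups did not overlap, but the arrays of each group were spread more widely than for any other member, and the rise of 0.74 had an SE of 0.182 (adjusted p = 0.0075). RPL29, on 180 nt, rose by 0.31 from 13.21, 13.17 and 13.21 to 13.49, 13.56 and 13.47. RPL38, on 237 nt, rose by 0.26. RPL29 and RPL38 turned to -0.31 and -0.32 once the length trend was removed, and RPL41A went to 0.02.

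Of the other rises, RPL37B went from 13.30, 13.27 and 13.20 to 13.55, 13.55 and 13.54, a difference of 0.29, and RPL37A was at 0.23. RPL37B after length correction was at 0.12 and RPL37A at 0.03, the latter not past the threshold (adjusted p = 0.543). RPL36A and RPL20A, both members of pairs described next, were at 0.27 and 0.21. RPL40A and RPL40B, whose proteins are made as fusions to ubiquitin, rose by 0.12 and 0.18 with adjusted p of 0.0429 and 0.0458. Leaving out 1 array ended the RPL40A call for each of the 6 arrays (adjusted p up to 0.119) and the RPL40B call for 5 of them (up to 0.141). Neither passed with the length trend removed, at 0.08 and 0.09. RPL30, whose protein binds its own transcript and blocks its splicing, was at 0.12 and missed the threshold (adjusted p = 0.0521), as did RPL28 at 0.10 (adjusted p = 0.0672). RPL24A and RPL24B, for a protein that bridges the subunits and joins in the cytoplasm, were at 0.06 and 0.03.

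Both genes of RPL13 and of RPL8 fell. RPL13A read 12.78, 12.70 and 12.62 against 12.46, 12.42 and 12.45, and RPL13B 13.21, 13.21 and 13.19 against 13.00, 12.97 and 12.96, for differences of -0.26 and -0.22. RPL8A read 13.28, 13.33 and 13.26 against 13.08, 13.05 and 13.10, and RPL8B 13.38, 13.34 and 13.29 against 13.14, 13.08 and 13.11, for differences of -0.21 and -0.22. In all 4 genes every yEVenus array was lower. A further fall, RPL6B at -0.16, was not matched by its paralogue, and its call was lost without either of 2 arrays (adjusted p up to 0.0534 in limma). RPL6B was at -0.09 with array medians centred (adjusted p = 0.132) and at -0.10 with each chromosome centred (adjusted p = 0.0745).

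**Figure D2:**
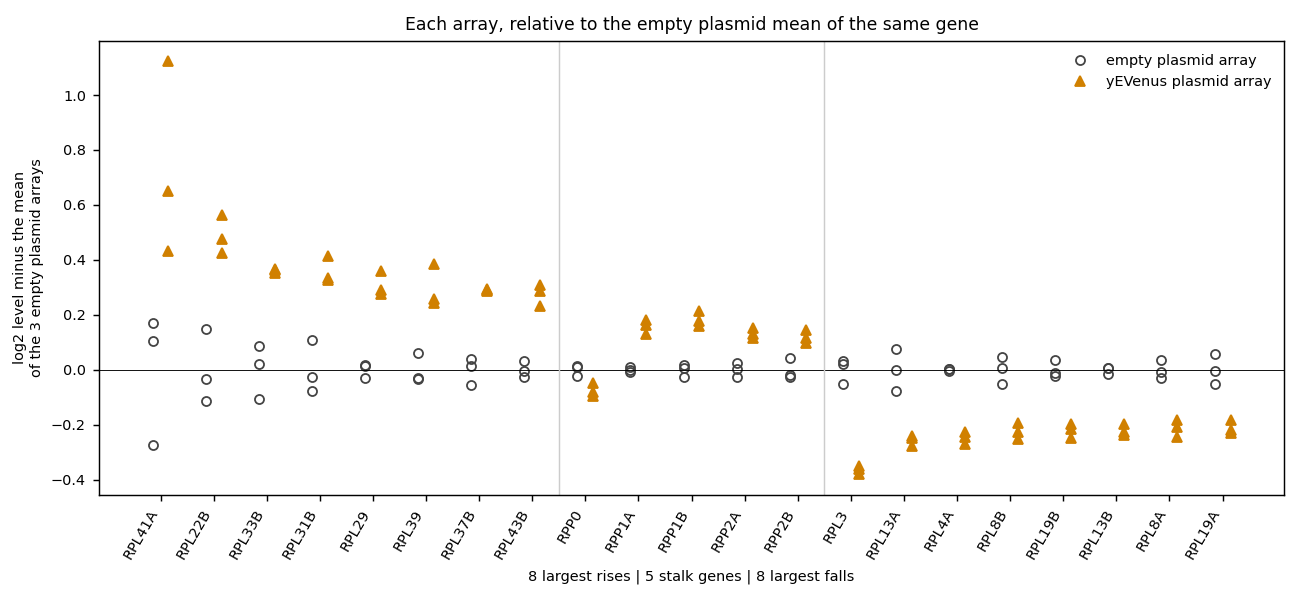
Log2 level on each array minus the mean of the 3 empty plasmid arrays of the same gene (vertical axis), for the 8 largest rises, the 5 stalk genes and the 8 largest falls; circles are empty plasmid arrays and triangles yEVenus arrays. The rises and falls shown were chosen among members whose groups do not overlap, so their separation was fixed by that choice. The groups are also apart for the 5 stalk genes, beside 74.9% of all genes. RPL41A has the widest spread, and among the stalk genes RPP0 alone lies below 0.

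Paralogues could be compared for 29 pairs, since both genes of each are measured. The difference in response was tested on the log2 ratio of A over B within each array. The limma fit covered all 52 measured pairs whose names end in A and B. These 52 include the 29, and all but COX5A/B and NHP6A/B are ribosomal protein pairs. A share of the 52 is therefore not a share over all genes. The ratio is compared between groups only, since the brightness of 2 probe sets does not rank the amounts of their 2 transcripts. It differed between the groups for 11 of the 29 pairs, beside 50.0% of the 52. With own probe sets alone it differed for 9 of 28 pairs, beside 43.1%, and with each chromosome centred for 13 of 29, beside 55.8%. In 3 of the 11 the A gene had the higher difference and in 8 the B gene. In those 8 the A probe set was the brighter, with mean ratios of 0.42 (RPL43) to 2.63 (RPL15) with the empty plasmid. In the 3 that ratio was -0.01 for RPL20, -0.71 for RPL36 and 0.59 for RPL6. Whether brighter probe sets have smaller differences was not tested. In terms of single genes, both rose in 7 pairs, both fell in 3, 1 of the 2 rose in 7 and 1 fell in 2, and neither passed in 10. Over all genes 29.3% rose and 41.0% fell. No pair had 1 gene rise and the other fall, and how often other pairs did so was not counted. The smallest p an exact two-sided permutation of 3 and 3 arrays allows is 0.1, and all 11 pairs had that value.

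RPL22 had the largest change of ratio. The Rpl22 protein is known to bind the intron of RPL22B and to hold down its splicing. RPL22A read 13.29, 13.29 and 13.24 with the empty plasmid and 13.33, 13.34 and 13.33 with yEVenus. RPL22B read 11.91, 11.73 and 11.65 against 12.24, 12.32 and 12.19. RPL22B rose 1.40-fold (adjusted p = 7.73e-04) and RPL22A, at 0.06, did not pass (adjusted p = 0.248). The A minus B ratio was 1.38, 1.56 and 1.60 with the empty plasmid and 1.10, 1.02 and 1.15 with yEVenus, a change of -0.42 (95% interval -0.55 to -0.30, adjusted p = 1.73e-04). RPL22B was at 0.54 with each chromosome centred and at 0.35 with the length trend removed. Its span of 690 nt includes an intron, so the length-corrected value rests on a length that is too long.

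RPL33B and RPL31B rose more than their A genes, which rose too. RPL33B read 12.85, 12.79 and 12.66 against 13.12, 13.13 and 13.13, and RPL33A 13.28, 13.18 and 13.17 against 13.38, 13.42 and 13.39. The rises were 0.36 and 0.19, and the ratio changed by -0.18 (95% interval -0.25 to -0.10, adjusted p = 0.0025). For RPL31 the rises were 0.36 and 0.16 and the ratio changed by -0.20 (adjusted p = 0.0031). RPL43, a zinc-binding protein, had RPL43B at 0.28, from 13.21, 13.15 and 13.17 to 13.41, 13.48 and 13.46. RPL43A was at 0.11, from 13.63, 13.56 and 13.59 to 13.67, 13.73 and 13.71. Its ratio was 0.42, 0.41 and 0.42 with the empty plasmid and 0.27, 0.25 and 0.25 with yEVenus, the tightest separation of these pairs (change -0.16, adjusted p = 7.01e-04). The spans of RPL43A and RPL43B, 682 and 554 nt with an intron each, differ, and with the trend on span removed the change was -0.04 (adjusted p = 0.342). That value rests on spans longer than the mature transcripts.

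Removal of that trend leaves a pair of equal span as it was. RPL15A and RPL15B, both 615 nt, did not pass as single genes, at -0.10 and 0.13, yet their ratio changed by -0.24 (95% interval -0.35 to -0.12, adjusted p = 0.0032). RPL4A and RPL4B, both 1089 nt, had a change of -0.32 (adjusted p = 7.70e-04). RPL4B read 11.99, 11.85 and 12.06 against 12.14, 12.00 and 11.98, with overlapping groups. RPL4A is on chromosome II and RPL4B on chromosome IV, and the change was -0.09 with each chromosome centred (adjusted p = 0.159). RPL23A is on chromosome II as well: its pair changed by -0.11 (adjusted p = 0.0097), which turned to 0.10 with each chromosome centred (adjusted p = 0.0212).

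In RPL20, RPL36 and RPL6 the A gene had the higher difference. RPL20A read 13.09, 13.04 and 13.01 against 13.25, 13.26 and 13.25, while RPL20B read 13.12, 13.00 and 13.05 against 13.04, 13.13 and 13.03. RPL20A thus rose by 0.21 and RPL20B, at 0.01, overlapped between groups. The ratio changed by 0.20 (95% interval 0.11 to 0.28, adjusted p = 0.0015). For RPL36 the genes were at 0.27 and 0.09 and the ratio changed by 0.18 (adjusted p = 0.0041). With the length trend removed the change was 0.39, on spans of 766 and 541 nt that include an intron each. RPL6A read 13.35, 13.32 and 13.29 against 13.31, 13.32 and 13.31, and RPL6B 12.72, 12.75 and 12.70 against 12.56, 12.56 and 12.59. RPL6A overlapped between groups and RPL6B did not, and the ratio changed by 0.15 (adjusted p = 0.0024). The last of the 11, RPL2, changed by -0.09 (adjusted p = 0.0389), and by -0.03 with each chromosome centred (adjusted p = 0.414). With the length trend removed the change was -0.19, on spans of 912 and 1165 nt that also include introns. The length-corrected changes of RPL36 and RPL2 rest on lengths that are too long. RPL2A is read by a shared probe set, and with its own probe set the change was -0.05 (adjusted p = 0.194).

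For the 18 pairs that did not pass, 15 had a 95% interval within 0.15 of 0 on either side. The interval was -0.06 to 0.09 for RPL8, -0.06 to 0.08 for RPL19, -0.12 to 0.05 for RPL13 and -0.08 to 0.10 for RPL26, all pairs whose genes both passed in 1 direction. It was -0.09 to 0.04 for RPP1. Some of the 18 passed under another setting. With the length trend removed the RPP1 ratio changed by -0.34 (adjusted p = 5.75e-06, spans 321 and 622 nt) and the RPL16 ratio by -0.14 (adjusted p = 0.0073). The RPP1B span and both RPL16 spans include an intron, while the RPP1A span does not. These 2 values therefore rest on lengths that overstate the mature transcripts. With each chromosome centred the change was 0.26 for RPL21 (adjusted p = 6.42e-05), 0.17 for RPL34 (0.0144), -0.12 for RPL16 (0.0144) and -0.13 for RPL40 (0.0425). RPL11, RPL14 and RPL21 each include a probe set of the shared kind, which may read both paralogues. With own probe sets the RPL14 genes were at 0.12 and 0.21 and those of RPL11 at 0.05 and -0.07, and neither ratio passed (adjusted p = 0.162 and 0.194).

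**Figure D3:**
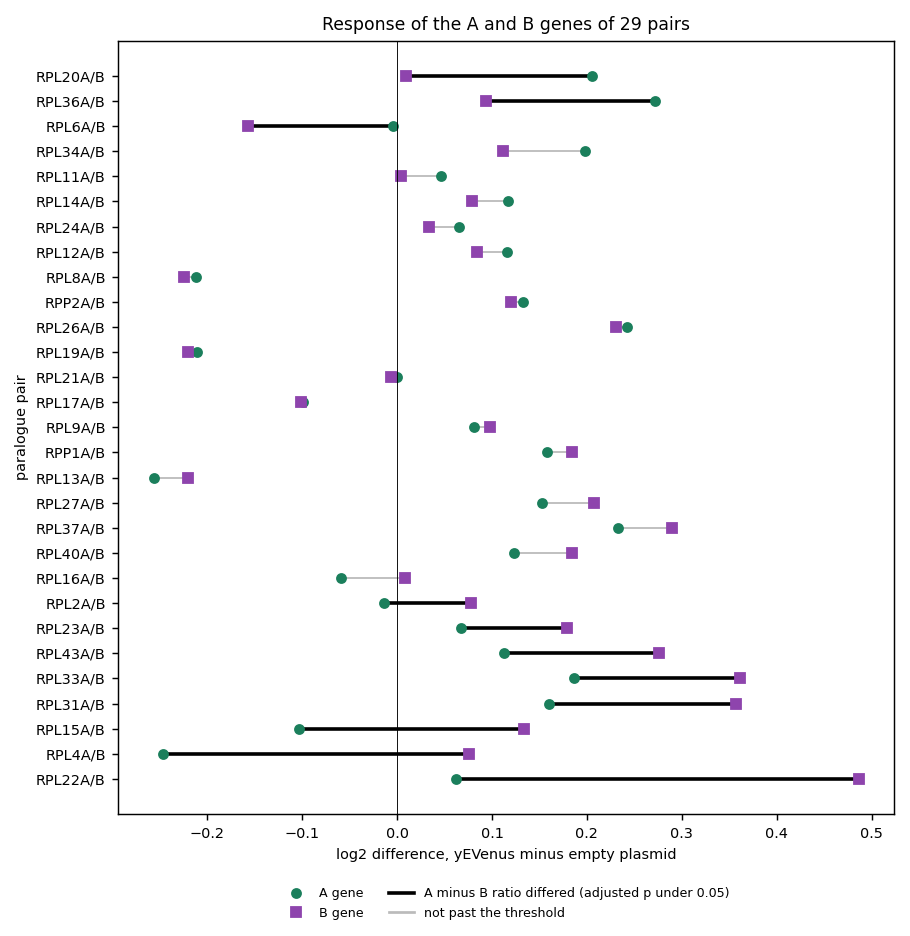
Log2 difference (yEVenus minus empty plasmid, horizontal axis) of the A gene (circle) and the B gene (square) of 29 pairs; a black line marks the 11 pairs whose A minus B ratio differed in limma and a grey line the rest. The longest lines are RPL22, RPL4 and RPL15, and the 2 genes of RPL8, RPL17, RPL19 and RPL26 nearly coincide.

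Within the family, shorter genes had the higher differences. For 26 members the span from start to stop codon holds no intron, so that span is the coding length. Across these 26 genes, which share the same 6 arrays and are not independent, Spearman's rho of difference and span was -0.80, and it was -0.77 without RPL41A. Across all 5449 genes it was -0.46. The 7 of these members up to 400 nt had a median of 0.16, with 5 rises and 0 falls. The 14 between 400 and 800 nt had a median of 0.04 with 0 rises and 2 falls, and the 5 over 800 nt one of -0.19 with 0 rises and 3 falls. Of all genes in these ranges 74.9%, 53.9% and 30.5% rose, and 4.65%, 18.2% and 38.9% fell. At an unadjusted p under 0.05 in limma, the counts of 0 were 0 falls in the first range and 0 rises in the other ranges.

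The medians of these members were lower than those of all genes of like length. All 430 genes up to 400 nt had a median of 0.56, the 1036 between 400 and 800 nt one of 0.20 and the 1180 between 800 and 1200 nt one of -0.06. The median level in these ranges was 13.35, 13.19 and 13.45 for these members and 9.15, 9.67 and 9.20 for all genes. Whether brightness plays a part was not tested. With the length trend removed, 21 of the 26 fell and 0 rose, beside 34.0% and 31.0% of all genes. The median of the 26 was then -0.26, and 0 were higher at an unadjusted p under 0.05 in limma. For the other 49 members the span includes an intron and overstates the length of the mature transcript. They had a median of 0.11, with 22 rises and 5 falls, beside 29.3% and 41.0% of all genes. With the same trend removed they had 15 rises and 9 falls, beside 31.0% and 34.0%, and a median of 0.07. Their values after removal therefore rest on a length that is too long. In all, 13 members rose and 10 fell both before and after removal, and RPL29, RPL38, RPP1A and RPP2A rose before it and fell after it.

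**Figure D4:**
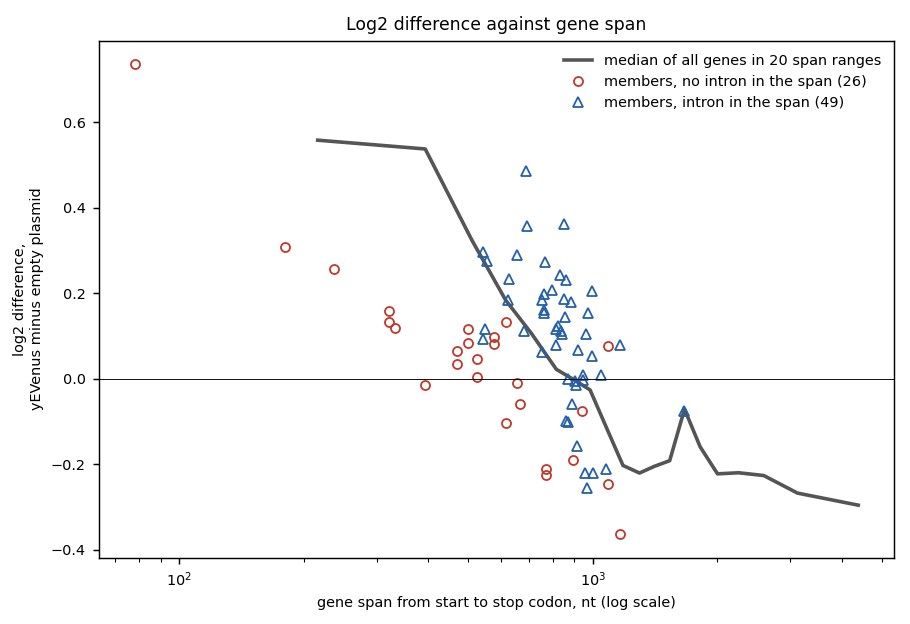
Log2 difference (yEVenus minus empty plasmid, vertical axis) against gene span in nt (log scale); circles are the 26 members without an intron in the span, triangles the 49 with one, and the line joins the medians of all genes in 20 span ranges. Most circles lie below the line, and the triangles lie on both sides of it.

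Genes of the small subunit are given for comparison. Among 53 of them, 22 were called higher and 8 lower, beside 29.3% and 41.0% of all genes, and their median was 0.09. After length correction 7 were higher and 21 lower, beside 31.0% and 34.0% of all genes, and their median was -0.04. The members with the smallest p there were RPS9A, from 9.19 to 10.30, and RPS22B, from 12.43 to 12.97. Of 20 genes for regulators of ribosomal protein transcription, 0 rose and 15 fell (0 higher at an unadjusted p under 0.05 in limma), with a median of -0.35 and a median span of 2124 nt, beside 41.0% of all genes that fell. After length correction 11 fell and 2 rose, beside 34.0% and 31.0%. CBF1, a centromere and promoter binding factor, fell by 1.43 and DOT6, a repressor of ribosome synthesis genes, by 0.64. FHL1 was at -0.51, IFH1 at -0.31, SFP1 at -0.36 and RAP1 at -0.21. The same 4 genes with the length trend removed were lower by less or not lower: FHL1 was at -0.27, IFH1 at -0.04, SFP1 at -0.18 and RAP1 at 0.01.

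Of 11 genes for dedicated chaperones and carriers of large subunit proteins, 9 fell and 0 rose (0 higher at an unadjusted p under 0.05 in limma) beside the same 41.0%, with a median of -0.35 and a median span of 1182 nt. Removal of the length trend also gave 9 falls, beside 34.0% of all genes. SYO1 then went to -0.04 and ALB1, a partner of the export factor Arx1, went from 0.03 to -0.28. RRB1, the chaperone of Rpl3, went from 11.33 ± 0.091 to 10.68 ± 0.059 (SD, n = 3 each), and ACL4, the chaperone of Rpl4, from 9.98 ± 0.068 to 9.46 ± 0.032. SQT1, the chaperone of Rpl10, was at -0.39 and SYO1, which carries Rpl5 and Rpl11, at -0.21. Of 8 modifiers of large subunit proteins 6 fell and 0 rose (0 higher at an unadjusted p under 0.05 in limma), beside 41.0% of all genes that fell. After length correction 4 fell and 0 rose (1 higher at an unadjusted p under 0.05 in limma), beside 34.0% and 31.0%. MAP1 and MAP2 in this list encode methionine aminopeptidases, which are not specific to ribosomal proteins. MAP2 fell by 0.96 and the lysine methyltransferase gene RKM4 by 0.73.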

How the data were processed

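Per the labels' protocols, total RNA was labelled with a kit that primes at the 3' end and hybridised to Affymetrix arrays. The deposited values are log2 levels per probe set; the submitters' processing notes name RMA and R 3.2.0 and no further step. Of 5900 probe sets, 5498 name 1 gene and 402 none; the brightest of a gene was used. Symbols were updated in 12 cases through a RefSeq table of assembly R64, which also gave spans. limma 3.58.1 in R 4.3.3 compared the groups (4 residual degrees of freedom, Benjamini-Hochberg over all genes, threshold 0.05) and was tested on simulated data. Ratios of A and B genes were fitted in the same way. The number of arrays limits precision. Members, lists and tests were chosen with earlier results of these data known; roles and the presence of introns come from textbook knowledge.

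Values per array are given for the 8 largest rises and falls among members past the threshold whose groups do not overlap, the 5 RPP genes, and the 6 pairs of smallest p; members with a known position or role are added. Of each other list the 2 genes of smallest p are named; FHL1, IFH1, SFP1, RAP1, SQT1 and SYO1 were added after their values were seen. The length trend is a loess fit (span 0.5) of each array's deviation on log2 span. Promoter motifs and intron-free lengths of the other members were not analysed here.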

Additional observations from a re-analysis of the deposited data

How the results depend on the processing

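The 27 rises, 10 falls, median of 0.09 and 11 pairs moved as follows. Shares of all genes that rose or fell were computed for the main setting, both kinds of centring, the 1.2-fold change and length removal, and are given above. For the other settings, among them the intensity trend and the threshold of 0.01, no such share stands beside the counts. Those counts therefore do not show whether members moved differently from all genes. Centring array medians gave 45 rises and a median of 0.16, and an intensity trend in the variance model 41 rises and 16 falls. Centring each chromosome, an alternative added after the data were seen, gave 42 rises, 6 falls and a median of 0.15. Signs were followed across settings for members named by rank, pair, position or function, where a difference passed before or after. Of these, RPL19A turned to 0.086, RPL19B to 0.076 and RPL4A to 0.050. Among other members RPL32 went from -0.015 to 0.28 and RPL21A from -0.0003 to 0.30. Both passed the threshold after centring. A threshold of 0.01 gave 16 rises, and a minimum change of 1.2-fold 1 rise and 0 falls. Leaving out each array gave medians of 0.072 to 0.124, 19 to 29 rises, 9 to 10 falls and 10 to 14 pairs. The replicate block gave 25 rises, 10 falls and 10 pairs, and ended the calls of RPL40A and RPP2A. Same-numbered arrays deviated together with correlations of 0.19, -0.13 and 0.20, so the numbers were not taken as pairs.

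Removing the length trend gave 15 rises, 30 falls and a median of -0.017. Together with the replicate block it gave 11 rises, 28 falls and a median of -0.017. When ribosomal protein genes were left out of the trend's estimate it gave 14 rises, 31 falls and a median of -0.015. In members without an intron, a choice made after the data were seen, the median went from 0.06 to -0.26. Among the members followed for sign, signs turned under the first 2 of these settings, to -0.26 for RPL11A, -0.31 for RPL11B, -0.31 for RPL24A, -0.34 for RPL24B, -0.31 for RPL29, -0.17 for RPL30, -0.000801 for RPL43B, -0.37 for RPP1A, -0.022 for RPP1B, -0.39 for RPP2A and -0.40 for RPP2B. Under the third they were -0.27 for RPL11A, -0.31 for RPL11B, -0.32 for RPL24A, -0.35 for RPL24B, -0.32 for RPL29, -0.17 for RPL30, -0.0021 for RPL39, -6.54e-05 for RPL41A, -0.0074 for RPL43B, -0.38 for RPP1A, -0.026 for RPP1B, -0.40 for RPP2A and -0.41 for RPP2B. Members outside that selection turned as well, among them RPL38 to -0.32, RPL12A to -0.23 and RPL12B to -0.26 under the first setting. The cause was not tested. Removing the trend on intron-free lengths was not run.

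Cyclic loess, quantile normalization, the dimmest genes left out, averaged probe sets, shared probe sets left out, robust variances and array weights gave 25 to 31 rises, 9 to 12 falls and 9 to 11 pairs, and members of chromosomes I and II left out 27 rises and 7 falls. The level of bright probe sets and the number of arrays limit what small differences can be seen.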
